A study of Mus musculus with 30 samples.

Results

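The A2 reactive astrocyte panel is a set of 10 protein-coding genes (Clcf1, Tgm1, Ptx3, S100a10, Sphk1, Cd109, Ptgs2, Emp1, Slc10a6 and Tm4sf1), chosen by name, and 10 of 10 were found among the 30952 genes of the deposited table. Their RNA was measured in astrocytes and microglia sorted from the spinal cord of 15 female C57BL/6 mice. The 4 naive mice have no further treatment in the labels. The 6 EAE-vehicle mice and the 5 EAE-RIPK1inh mice were immunized with the MOG35-55 peptide to induce experimental autoimmune encephalomyelitis (EAE, an autoimmune disease of the central nervous system), at 8 to 10 weeks of age with complete Freund's adjuvant and pertussis toxin per the methods of the study. From a clinical score of about 1, mice of both EAE groups were dosed orally BID for 3 days, the first with 20% Captisol and the second with GSK'547, an inhibitor of RIPK1 kinase activity, at 50 mg/kg. Astrocytes were sorted as GLAST+CD11b-CD45-CD140a- cells and microglia as CD11b+CD45intCX3CR1+ cells. There were 15 libraries per cell type, and p-values measure the spread between libraries of a group. The labels name no vehicle for naive mice, so immunization and vehicle cannot be told apart in the comparison of EAE-vehicle with naive mice.

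Astrocytes respond to injury and inflammation by becoming reactive, and the genes that they induce differ with the insult. The A2 genes were described in astrocytes that react to ischemia, the A1 genes in astrocytes that react to systemic endotoxin, and the pan-reactive genes in both. The A2 panel joins genes of unlike function: a gp130 cytokine and a pentraxin that cells secrete, enzymes that make prostaglandins and sphingosine 1-phosphate, a transglutaminase, an annexin partner, and several membrane proteins.

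Values are log2 FPKM (fragments scaled to exon length and library size), quantile-normalized by the authors over all 30 libraries. A gene without signal in a library holds a value at or near 0, up to 2.74 in astrocytes, that reflects its place in the table, and such values are named here as "no signal". The libraries differed in how many genes had signal, from 6728 in EAE-vehicle replicate 1 to 22981 in naive replicate 1 for astrocytes and from 8710 to 20398 for microglia, and read depth is unknown. Astrocyte markers (9 of 9 genes with signal in each astrocyte group) had a mean level of 6.98 to 9.22 in astrocyte libraries and 0.87 to 1.89 in microglia libraries. Microglia markers (10 genes) had 9.08 to 11.60 in microglia and 0.86 to 4.15 in astrocytes. Astrocyte libraries also held oligodendrocyte markers (7 genes) at a mean level of 6.13 to 9.91 and neuron markers (6 genes) at 3.88 to 6.07. Following the cutoff of the study, calls needed a fold over 1.5 and an unadjusted limma p under 0.05, and p-values adjusted over all genes tested by the Benjamini-Hochberg method are given beside it. In bulk libraries, fewer cells of a type and less RNA per cell cannot be told apart.

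In astrocytes of EAE-vehicle mice, S100a10 and Tgm1 were higher than in naive astrocytes, and the other 8 members did not pass the test. S100a10 was present in all 15 astrocyte libraries, whereas Ptgs2, Ptx3, Cd109 and Slc10a6 had signal in 1 to 5 of them. No member passed the test between EAE-RIPK1inh and EAE-vehicle astrocytes, where 0 of 10 had an unadjusted p under 0.05 in limma beside 3.02% of all genes called, and 2 did with quality weights per library. The EAE-vehicle libraries enter both of these comparisons. The 2 members called in EAE, both higher, stand beside 6.71% of all genes tested that were called in either direction and 2.69% called higher.

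**Figure D1:**
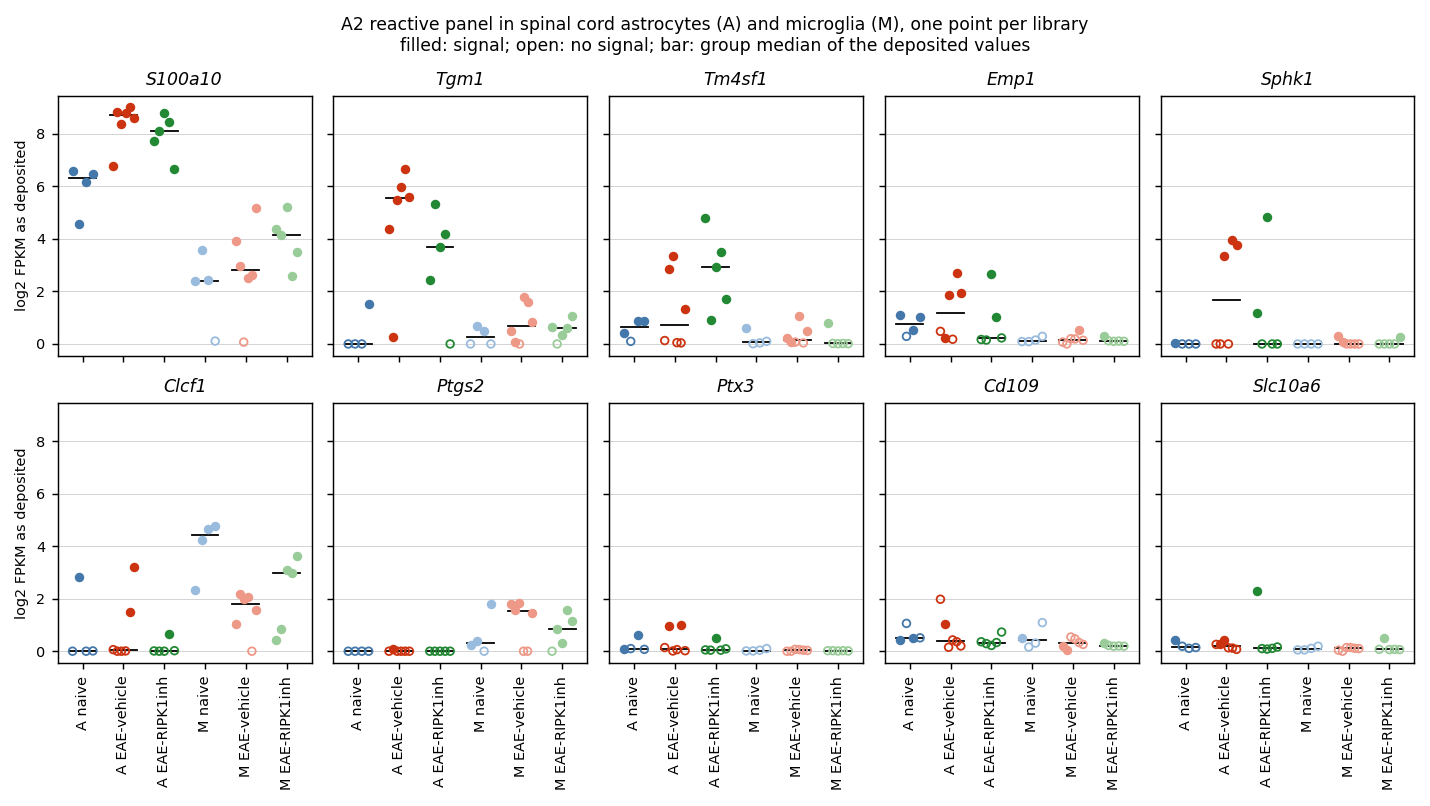
Level of each panel member in log2 FPKM (vertical axis, as deposited) in each library of the 6 groups, with filled points for libraries with signal, open points for libraries without signal, and a bar at the group median. S100a10 lies at 4.58 to 9.01 in astrocytes and Tgm1 reaches 6.67 in EAE-vehicle astrocytes, while Ptgs2 is at or near 0 in each astrocyte library.

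S100a10 encodes a protein of the S100 family that pairs with annexin A2 at the plasma membrane. The gene (ENSMUSG00000041959) lies at chr3:93555080-93564643 on the + strand of GRCm38. Naive astrocytes held 6.57, 4.58, 6.17 and 6.49 log2 FPKM (mean 5.95 ± 0.93, SD, n = 4). EAE-vehicle astrocytes held 6.76, 8.84, 8.36, 8.81, 9.01 and 8.62 (lowest 6.76, median 8.71, highest 9.01; mean 8.40 ± 0.83, SD, n = 6). Every EAE-vehicle library was above every naive library, with replicate 1 of the EAE-vehicle group close to the naive level. The log2 difference was 2.45 (SE 0.52, 95% interval 1.34 to 3.55, 5.45-fold), with an adjusted p of 0.0495 in limma and an exact two-sided permutation p of 0.00476, the smallest that 210 splits can give. The adjusted p ran from 0.00179 to 0.25 over the alternative settings and from 0.0121 to 0.135 with 1 library left out.

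EAE-RIPK1inh astrocytes held 7.74, 8.10, 8.78, 8.44 and 6.67 log2 FPKM of S100a10 (mean 7.95 ± 0.81, SD, n = 5). These values were all above the naive libraries and overlapped with the EAE-vehicle libraries. Against EAE-vehicle the log2 difference was -0.45 (SE 0.49, 95% interval -1.49 to 0.58), with an adjusted p of 0.85 in limma and an exact two-sided permutation p of 0.385. Against naive it was 1.99 (SE 0.54), with an unadjusted p of 0.0022 and an adjusted p of 0.35 in limma. Without the libraries that had under 9000 genes with signal, which are naive replicate 2 and EAE-vehicle replicate 1, the difference from EAE-vehicle was -0.78 and was called, with an unadjusted p of 0.0346 and an adjusted p of 0.764 in limma. This alternative was added after the data had been seen. It was -0.78 without EAE-vehicle replicate 1 alone (unadjusted p 0.0871) and -0.13 without EAE-RIPK1inh replicate 5 (unadjusted p 0.781), neither of which was called in limma.

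Several relatives of S100a10 also rose between naive and EAE-vehicle astrocytes. Anxa2, which forms a heterotetramer with the protein, had a mean of 3.18 log2 FPKM in naive and 6.08 in EAE-vehicle astrocytes, a log2 difference of 2.89 (SE 1.04) with an unadjusted p of 0.0141 and an adjusted p of 0.427 in limma. Of 9 partner and S100 genes tested, 4 were called higher and 0 lower, with a median log2 difference of 1.46 beside 0.03 over all genes. S100a4, S100a6 and S100a11, which are calcium-binding proteins of the same family, rose by 6.03, 3.46 and 4.84 log2 units, with adjusted p-values of 0.000668, 0.00128 and 0.00687 in limma. None of these genes was called between EAE-RIPK1inh and EAE-vehicle, where 0 of 9 had an unadjusted p under 0.05 in limma.

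Tgm1 encodes a transglutaminase, an enzyme that cross-links proteins and is best known from the cornified envelope of the skin. The gene (ENSMUSG00000022218) lies at chr14:55700009-55713926 on the - strand of GRCm38. The 250 bases before one of its RefSeq start sites (GRCm38.p6, chr14:55713493-55713742, - strand) are shown because Tgm1 had the largest difference of the panel between EAE-vehicle and naive astrocytes. Capitals mark matches to TTCNNNGAA, a palindromic STAT motif, which begin 173 and 64 bases before the start site.
Tgm1 upstream window: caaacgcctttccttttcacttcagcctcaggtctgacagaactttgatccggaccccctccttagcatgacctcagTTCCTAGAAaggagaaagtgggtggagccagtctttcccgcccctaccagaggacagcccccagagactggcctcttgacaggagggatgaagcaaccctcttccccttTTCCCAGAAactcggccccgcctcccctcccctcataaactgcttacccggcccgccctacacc
This motif reads the same on both strands, and 7.02% of all 32851 upstream windows of this length held at least 1 match. The window of the other RefSeq start site of Tgm1 held none, nor did either window hold TGANTCA (AP-1, in 6.75% of windows), TGACGTCA (CRE, in 1.55%) or TATAAA (the core of a promoter box, in 12.4%), each searched on both strands with overlaps allowed. A match is only a run of letters, and no binding was measured.

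Tgm1 had no signal in naive astrocyte replicates 1, 2 and 3 and a level of 1.52 log2 FPKM in replicate 4. EAE-vehicle astrocytes held 4.37, 0.25, 5.48, 5.98, 6.67 and 5.61. All of these libraries but replicate 2 were far above the naive group, and replicate 2, the EAE-vehicle library with the most genes with signal (22109), overlapped with it. The log2 difference was 4.35 (SE 1.17, 95% interval 1.85 to 6.84), with an unadjusted p of 0.00209 and an adjusted p of 0.152 in limma and an exact two-sided permutation p of 0.0238. Over the alternative settings this difference ran from 3.66 to 5.16, and its size depends on the value given to libraries without signal. An antisense gene, Gm49067, overlaps with Tgm1 and has no values of its own in these data. Reads of the pair cannot be told apart, since the amplified cDNA was cut with Tn5 per the labels, which keeps no strand.

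EAE-RIPK1inh astrocytes held 2.44, 5.34, 3.70 and 4.19 log2 FPKM of Tgm1 in replicates 1 to 4 and no signal in replicate 5, which had 9898 genes with signal. The values spread over the whole range between the naive and the EAE-vehicle libraries. Against EAE-vehicle the log2 difference was -1.60 (SE 1.10, 95% interval -3.94 to 0.75), with an adjusted p of 0.84 in limma and an exact two-sided permutation p of 0.262. Without EAE-vehicle replicate 2 it was -2.49 with an unadjusted p of 0.0111 and an adjusted p of 0.858 in limma, which met the cutoff of the study. It was -0.81 without EAE-RIPK1inh replicate 5, so each of these libraries moved the value by over 1.5 times. Against naive it was 2.75 (SE 1.22), with an unadjusted p of 0.0392 and an adjusted p of 0.897 in limma. Of the 4 other transglutaminase genes tested, 0 were called in either comparison, and 0 had an unadjusted p under 0.05 in limma.

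Markers of other cells also differed between naive and EAE-vehicle astrocytes, given here as ranges over the libraries of a group. Whether they followed S100a10 and Tgm1 from library to library was not tested. The summed level of the 9 monocyte and neutrophil markers (log2 of the summed FPKM plus 1) was 0.00 to 6.09 in naive and 7.55 to 10.12 in EAE-vehicle libraries, and 7 of 9 were called higher. The 8 T cell markers ran from 0.00 to 3.57 and from 3.81 to 9.38, and 5 of 8 were called higher. Microglia markers ran from 5.80 to 7.23 and from 7.66 to 9.31 (4 of 10 higher), and oligodendrocyte markers from 12.29 to 14.16 and from 12.91 to 15.73 (4 of 7 higher). The mean level of the oligodendrocyte markers was 6.13 to 7.39 in naive libraries. It was 6.38 in EAE-vehicle replicate 1, the lowest of its group for S100a10, and 8.62 to 9.91 in the other EAE-vehicle libraries. EAE-RIPK1inh replicate 5, the lowest of its group for S100a10, had 8.48 in a group range of 7.81 to 9.19. The summed level of the astrocyte markers themselves ran from 13.64 to 14.73 and from 13.20 to 14.32, with 1 of 9 called higher (Gfap) and 5 lower. Between EAE-RIPK1inh and EAE-vehicle 2 of 9 were called higher (Gja1 and Fgfr3). Sorted microglia held less of both genes, with up to 5.17 log2 FPKM of S100a10 and up to 1.78 of Tgm1 in EAE-vehicle mice. Naive astrocyte libraries had no signal for the T cell genes Cd3d, Cd2, Lck and Cd5 and the microglia gene Itgam. The sort gate leaves out CD45+ cells, and the part of these markers in the differences was not tested.

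**Figure D2:**
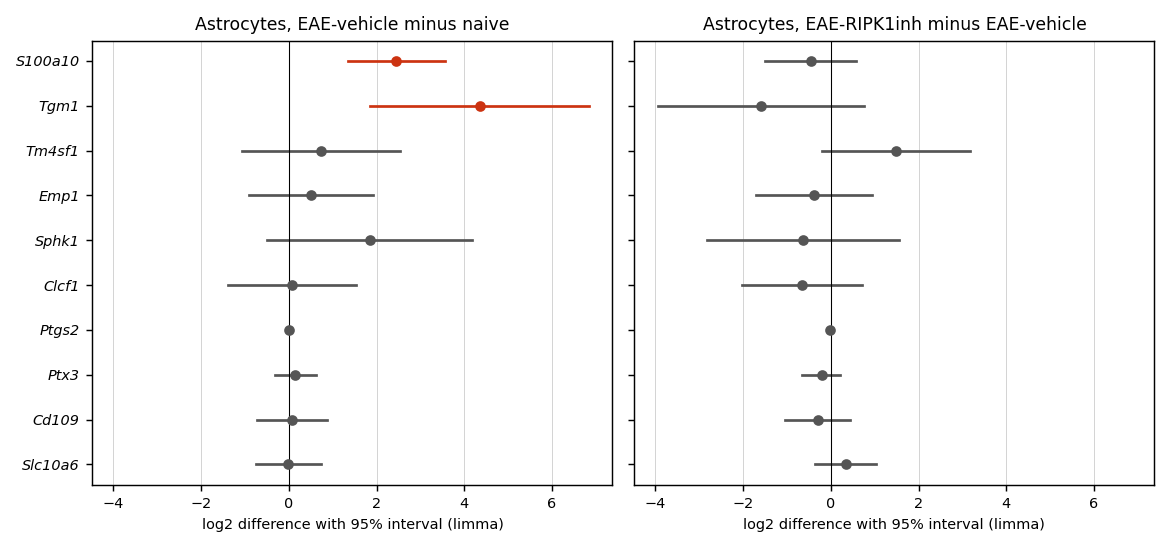
Log2 difference of each panel member in astrocytes (point) with its 95% interval in limma (line), for EAE-vehicle minus naive (left) and EAE-RIPK1inh minus EAE-vehicle (right), with called members in red. S100a10 (2.45) and Tgm1 (4.35) are called on the left, and no member is called on the right.

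Tm4sf1, Emp1 and Cd109 encode membrane proteins. Tm4sf1 is a small protein with 4 membrane-spanning segments, known for high expression in endothelial cells and tumors, and its gene (ENSMUSG00000027800) lies at chr3:57285611-57301988 on the - strand of GRCm38. The 250 bases before its RefSeq start site (GRCm38.p6, chr3:57301989-57302238, - strand) are shown because Tm4sf1 had the largest positive difference between EAE-RIPK1inh and EAE-vehicle astrocytes, although it did not pass the test, and they held no match to the motifs searched, so the run has no capitals.
Tm4sf1 upstream window: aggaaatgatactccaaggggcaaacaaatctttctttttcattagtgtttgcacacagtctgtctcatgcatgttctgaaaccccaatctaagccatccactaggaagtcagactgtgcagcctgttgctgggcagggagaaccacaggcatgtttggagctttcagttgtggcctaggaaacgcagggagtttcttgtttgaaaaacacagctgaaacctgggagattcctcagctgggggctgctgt

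Tm4sf1 stood at 0.40, 0.87 and 0.88 log2 FPKM in naive replicates 1, 3 and 4, with no signal in replicate 2. In EAE-vehicle it had 2.87, 3.35 and 1.34 in replicates 2, 3 and 6 and no signal in the other 3 libraries. EAE-RIPK1inh astrocytes held 4.80, 0.93, 2.92, 3.51 and 1.71, so that 5 of 5 libraries had signal and all were above the naive group, while they overlapped with EAE-vehicle. The log2 difference from EAE-vehicle was 1.48 (SE 0.79, 95% interval -0.21 to 3.17), with an unadjusted p of 0.0824 and an adjusted p of 0.84 in limma and an exact two-sided permutation p of 0.147. It met the cutoff of the study without EAE-vehicle replicate 2 (1.79), without EAE-vehicle replicate 3 (1.89) and without EAE-RIPK1inh replicate 2 (1.94), with adjusted p-values of 0.803 to 0.902 in limma. Without EAE-RIPK1inh replicate 1 it was 0.97, with an unadjusted p of 0.237 in limma.

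Against naive, Tm4sf1 was higher in EAE-RIPK1inh astrocytes by 2.21 log2 units (SE 0.88), with an unadjusted p of 0.0235 and an adjusted p of 0.864 in limma and an exact two-sided permutation p of 0.0397. With S100a10 and Tgm1 this made 3 members called, all higher, beside 4.63% of all genes called in either direction and 1.98% called higher. The Tm4sf1 call was lost without naive replicate 2 (2.06), EAE-RIPK1inh replicate 1 (1.71) or EAE-RIPK1inh replicate 4 (2.03). The Tgm1 call was lost without naive replicate 1, 2 or 3 (2.62 each) or without EAE-RIPK1inh replicate 2 (2.20), 3 (2.61) or 4 (2.49). The 8 endothelial markers had summed levels of 2.13 to 8.39 in naive, 0.00 to 5.48 in EAE-vehicle and 0.00 to 4.22 in EAE-RIPK1inh libraries. The library with the most Tm4sf1 (EAE-RIPK1inh replicate 1, 4.80) had an endothelial sum of 1.33 and a mural sum of 0.00, and the library with the highest endothelial sum (naive replicate 4, 8.39) had 0.88 of Tm4sf1. The part of endothelial and mural markers in the Tm4sf1 differences was not tested.

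Emp1 belongs to the PMP22 family of membrane proteins. It had 1.09, 0.53 and 1.01 log2 FPKM in naive replicates 1, 3 and 4, and 0.23, 1.88, 2.69 and 1.95 in EAE-vehicle replicates 2, 3, 5 and 6. EAE-RIPK1inh replicates 3 and 4 held 2.68 and 1.03, and all other astrocyte libraries had no signal. The groups overlapped, with a log2 difference of 0.51 (95% interval -0.90 to 1.91) between EAE-vehicle and naive and of -0.38 (95% interval -1.70 to 0.94) between EAE-RIPK1inh and EAE-vehicle. Without EAE-vehicle replicate 5 these were 0.22 and -0.09, and without EAE-RIPK1inh replicate 3 the second was -0.84, none of them called. In the same family, Emp3 rose by 3.01 log2 units (SE 1.23, unadjusted p 0.0271, adjusted p 0.563 in limma) and Pmp22, a myelin protein of Schwann cells, fell by 2.87 (SE 0.99, unadjusted p 0.011, adjusted p 0.38), while Emp2 differed by 0.36 (unadjusted p 0.638). None of the 3 relatives was called between EAE-RIPK1inh and EAE-vehicle astrocytes. Pmp22 was called higher in sorted microglia than in astrocytes in all 3 conditions, and was also called lower in EAE-vehicle than in naive microglia (-2.38).

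Cd109, a GPI-anchored protein that binds TGF-beta and its receptors, had signal in 3 astrocyte libraries, at 0.41 and 0.49 log2 FPKM in naive replicates 1 and 3 and at 1.02 in EAE-vehicle replicate 2. Its log2 difference between EAE-vehicle and naive was 0.07 (95% interval -0.72 to 0.86). This rests mostly on values without signal, which reached 1.98 in EAE-vehicle replicate 1 and 1.06 in naive replicate 2. Without EAE-vehicle replicate 1 the difference was -0.19, not called. Of 14 genes of TGF-beta signaling tested, 2 were called higher in EAE-vehicle than in naive astrocytes, Tgfb3 (2.61, SE 0.99) and Smad4 (1.55, SE 0.71), and Tgfb3 was called lower in EAE-RIPK1inh than in EAE-vehicle (-2.11, unadjusted p 0.0387, adjusted p 0.84 in limma). Slc10a6, a transporter of sulfated steroids, had signal in 4 libraries, at 0.44 in naive replicate 1, 0.26 and 0.44 in EAE-vehicle replicates 2 and 3, and 2.28 in EAE-RIPK1inh replicate 1. Of the 4 other SLC10 genes tested, 0 were called in either comparison.

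Sphk1 and Ptgs2 encode enzymes of lipid mediators. Sphk1 makes sphingosine 1-phosphate, and its gene (ENSMUSG00000061878) lies at chr11:116530925-116536674 on the + strand of GRCm38. It stood at 0.03 log2 FPKM in naive replicate 1 with no signal in the other 3 naive libraries. EAE-vehicle replicates 3, 5 and 6 held 3.34, 3.96 and 3.78, and the other 3 had no signal. EAE-RIPK1inh replicates 1 and 3 held 1.19 and 4.84, and the other 3 had no signal. Within each EAE group the libraries thus fell apart into some with clear levels and some with none, and the groups overlapped.

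The log2 difference of Sphk1 was 1.84 (SE 1.10, 95% interval -0.49 to 4.18) between EAE-vehicle and naive, with an unadjusted p of 0.113 and an adjusted p of 0.834 in limma, and -0.64 (95% interval -2.83 to 1.55) between EAE-RIPK1inh and EAE-vehicle. With 1 library left out the second ran from -1.55 (without EAE-RIPK1inh replicate 3) to -0.22 (without EAE-vehicle replicate 5) and was not called. With quality weights per library the first difference was 2.44 and was called, with an adjusted p of 0.346 in limma. The 4 astrocyte libraries with Sphk1 above 3 log2 FPKM also had the 4 highest sums of monocyte and neutrophil markers, 9.22, 9.96 and 10.12 in EAE-vehicle replicates 3, 5 and 6 and 11.80 in EAE-RIPK1inh replicate 3, against 8.76 or less in all others. They also had the 4 highest values of Emp1. Sorted microglia libraries had monocyte and neutrophil sums of 9.45 to 14.90 and held up to 0.30 log2 FPKM of Sphk1 and 0.54 of Emp1. The part of these markers in Sphk1 and Emp1 was not tested. An antisense gene, Gm29292, overlaps with Sphk1 and had signal in 4 astrocyte libraries, and reads of the pair cannot be told apart, since the amplified cDNA was cut with Tn5 per the labels, which keeps no strand.

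Of 15 other genes of sphingosine 1-phosphate signaling, 1 was called higher and 4 lower in EAE-vehicle than in naive astrocytes. S1pr1, a receptor, fell by 2.55 log2 units (SE 0.40, adjusted p 0.00683 in limma), from a mean of 8.96 to 6.41. S1pr5, another receptor, rose by 3.46 (SE 0.94, adjusted p 0.164), the phosphatase gene Sgpp1 fell by 3.23 (SE 0.83, adjusted p 0.124) and the ceramidase gene Asah1 fell by 1.97 (SE 0.60, adjusted p 0.254). Between EAE-RIPK1inh and EAE-vehicle, S1pr1 was called higher (0.94, unadjusted p 0.0244) and S1pr5 lower (-2.37, unadjusted p 0.0172), each with an adjusted p of 0.84 in limma. Sphk2, the other sphingosine kinase, had means of 2.20, 2.63 and 2.29 log2 FPKM in the naive, EAE-vehicle and EAE-RIPK1inh groups and was not called.

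Ptgs2 encodes COX-2, the inducible enzyme of prostaglandin synthesis. Of 15 astrocyte libraries, 14 had no signal and EAE-vehicle replicate 2 had 0.07 log2 FPKM, so no change in astrocytes could be read from it. Microglia held 0.22, 0.39 and 1.80 log2 FPKM in naive replicates 1, 2 and 4, 1.79, 1.57, 1.84 and 1.46 in EAE-vehicle replicates 1, 2, 3 and 6, and 0.86, 0.30, 1.56 and 1.15 in EAE-RIPK1inh replicates 2 to 5, with no signal in the other 4 libraries. The microglia groups overlapped. Of 14 other prostaglandin genes tested in astrocytes, 3 were called higher and 1 lower in EAE-vehicle. Hpgd, which degrades prostaglandins, rose by 2.22 log2 units (SE 0.52), Ptgds, a prostaglandin D synthase, by 2.56 (SE 0.64) and Tbxas1, the thromboxane synthase, by 1.52 (SE 0.67), with adjusted p-values of 0.0816, 0.107 and 0.64 in limma. Ptgs1, the constitutive cyclooxygenase, fell by 2.39 (SE 0.93, adjusted p 0.512), from a mean of 4.12 to 1.73 log2 FPKM. Ptges, an inducible prostaglandin E synthase, had means of 0.02, 0.70 and 1.65 in the 3 groups and was not called.

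Clcf1 and Ptx3 encode secreted proteins. Clcf1 is a cytokine that signals through Cntfr, Lifr and Il6st (gp130), and its gene (ENSMUSG00000040663) lies at chr19:4214238-4223490 on the + strand of GRCm38. Astrocytes had signal in 4 of 15 libraries, 2.83 log2 FPKM in naive replicate 2, 1.51 and 3.19 in EAE-vehicle replicates 5 and 6, and 0.64 in EAE-RIPK1inh replicate 4. The groups overlapped, and the log2 difference between EAE-vehicle and naive was 0.08 (95% interval -1.38 to 1.54). Its sign was not stable, with -0.40 without EAE-vehicle replicate 6, 0.79 without naive replicate 2 and -0.53 with a replicate block, none of them called. A protein-coding gene on the same strand, AC109138.7, overlaps with Clcf1 and has no values of its own in these data. Which of the pair a read in the shared stretch came from cannot be told, in astrocytes or in microglia.

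In microglia Clcf1 was the 1 member of 10 called between EAE-vehicle and naive, beside 12.0% of all genes. Naive microglia held 2.35, 4.24, 4.64 and 4.76 log2 FPKM (mean 4.00 ± 1.12, SD, n = 4). EAE-vehicle microglia held 1.02, 2.19, 2.00, 2.07 and 1.56 in replicates 1, 2, 3, 4 and 6 and no signal in replicate 5. All EAE-vehicle values lay below all naive values, the nearest being 2.19 and 2.35. Clcf1 fell by 2.52 log2 units (SE 0.71, 95% interval of the difference -4.03 to -1.01), with an unadjusted p of 0.00299 and an adjusted p of 0.066 in limma and an exact two-sided permutation p of 0.00476, the smallest that 210 splits can give. In the same microglia libraries 8 of 10 microglia markers were called lower (median log2 difference -1.69; summed level 15.68 to 15.84 in naive and 14.28 to 14.54 in EAE-vehicle). Of the monocyte and neutrophil markers 4 of 9 were called higher (summed level 9.45 to 13.89 and 10.23 to 13.48), and the part of these markers in the Clcf1 difference was not tested. EAE-RIPK1inh microglia held 0.41, 0.83, 3.09, 2.96 and 3.62 and overlapped with both other groups. Their log2 difference from EAE-vehicle was 0.71 (95% interval -0.71 to 2.13). No member was called in this comparison, where 0 of 10 had an unadjusted p under 0.05 in limma and 1.76% of all genes were called, and with quality weights per library Clcf1 was called.

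Receptors and mediators of Clcf1 were measured in astrocytes. Of 17 genes of gp130 cytokine signaling, 1 was called higher and 1 lower in EAE-vehicle than in naive. Stat3, the transcription factor downstream of gp130, rose by 0.87 log2 units (SE 0.34, adjusted p 0.521 in limma), and Cntfr, the ligand-binding receptor, fell by 2.25 (SE 0.92, adjusted p 0.558). Lifr had means of 3.98, 2.90 and 2.47 log2 FPKM in the naive, EAE-vehicle and EAE-RIPK1inh groups and Il6st of 4.30, 3.64 and 2.53, and neither was called in EAE-vehicle against naive or in EAE-RIPK1inh against EAE-vehicle. Against naive, Il6st was called lower in EAE-RIPK1inh (-1.76, SE 0.64, unadjusted p 0.0146, adjusted p 0.785 in limma).

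Ptx3, a long pentraxin of innate immunity, had signal in 5 astrocyte libraries, at 0.09 and 0.60 log2 FPKM in naive replicates 1 and 3, 0.95 and 0.98 in EAE-vehicle replicates 2 and 5, and 0.51 in EAE-RIPK1inh replicate 3. It had no signal in any of the 15 microglia libraries. Its log2 difference between EAE-vehicle and naive astrocytes was 0.14 (95% interval -0.32 to 0.61), and of the 5 other pentraxin genes tested 0 were called in either comparison. The 2 genes of the original A2 list outside the 10 members, B3gnt5 and Cd14, were not called in astrocytes either.

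The number of members with signal varied with the number of genes with signal in the library. The 2 astrocyte libraries with over 20000 genes with signal held 7 and 8 members, and the 3 libraries with the fewest such genes (6728, 8815 and 9898) held 2 each. Replicate 4 of EAE-vehicle had 11511 genes with signal and also held 2 members, which were S100a10 and Tgm1.

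**Figure D3:**
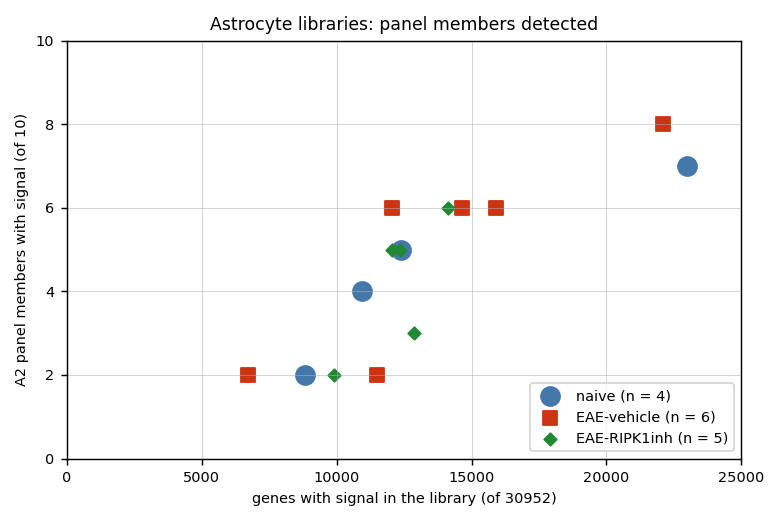
Number of panel members with signal (vertical axis, of 10) against the number of genes with signal (horizontal axis, of 30952) in each of the 15 astrocyte libraries, with naive, EAE-vehicle and EAE-RIPK1inh libraries marked by circles, squares and diamonds. The libraries with 22981 and 22109 genes with signal held 7 and 8 members, and the library with 6728 held 2.

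Between the cell types, S100a10 was higher in astrocytes than in microglia in all 3 conditions, with log2 differences of 3.83 (naive), 5.52 (EAE-vehicle) and 3.98 (EAE-RIPK1inh) and adjusted p-values of 0.00104, 2.90e-07 and 0.000186 in limma. No astrocyte library overlapped with a microglia library of its condition. In naive mice 2 of 10 members were called (S100a10 higher and Clcf1 lower in astrocytes, the latter by -3.29), beside 19.7% of all genes. The adjusted p for Clcf1 was 0.00426 in limma, with overlapping libraries. In EAE-vehicle mice 5 were called beside 22.4%, with Tgm1 (3.93), Sphk1 (1.79) and Emp1 (1.04) joining S100a10 as higher in astrocytes and Ptgs2 (-1.10) as lower. Adjusted p-values for Tgm1, Sphk1, Emp1 and Ptgs2 were 0.000732, 0.0977, 0.0818 and 0.0179 in limma. The libraries of the cell types overlapped for each of these genes, and the exact two-sided permutation p for Sphk1 was 0.182. In EAE-RIPK1inh mice 5 were called beside 21.7%, with S100a10, Tgm1 (2.60) and Tm4sf1 (2.60) higher and Clcf1 (-2.05) and Ptgs2 (-0.77) lower in astrocytes. Adjusted p-values for Tgm1, Tm4sf1, Clcf1 and Ptgs2 were 0.0487, 0.00336, 0.0554 and 0.172 in limma. Of these genes only Tm4sf1 had no overlap between the libraries of the cell types.

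The interaction term of EAE and cell type had an unadjusted p under 0.05 in limma for 2 of 10 members, beside 9.06% of all genes. For Tgm1 the EAE effect was 3.86 log2 units larger in astrocytes (SE 1.27, unadjusted p 0.00517, adjusted p 0.183 in limma), and microglia differed by 0.49 (SE 0.37). For Clcf1 the term was 2.60 (SE 1.02, unadjusted p 0.0168, adjusted p 0.34 in limma), from an astrocyte difference of 0.08 and a microglia difference of -2.52. With a replicate block it was 2.01 (unadjusted p 0.0515 in limma) and no longer called. Naive astrocytes had no signal for Clcf1 in 3 of 4 libraries (mean 0.71), against a mean of 4.00 in naive microglia. A fall of the size seen in microglia could not show in astrocytes, so the term cannot tell whether the EAE effect on Clcf1 differs. The interaction term for S100a10 was 1.69 (95% interval -0.44 to 3.82), so a difference between the cell types in its EAE effect was not shown. The effect of the inhibitor differed between the cell types for 0 of 10 members at an unadjusted p under 0.05 in limma, beside 3.44% of all genes, with Tm4sf1 nearest (1.63, SE 0.83, unadjusted p 0.0595).

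Set beside the other reactive astrocyte genes, the panel had 2 of 10 members called and a median difference nearer to 0 between EAE-vehicle and naive astrocytes. The median log2 difference was 0.32 over the 10 A2 members, 3.14 over 13 pan-reactive genes and 4.46 over 11 A1 genes, beside 0.03 over all genes. Of the pan-reactive genes 9 were called, all higher, with Lcn2 (8.03), Gfap (2.47), Cxcl10 (6.35) and Serpina3n (3.14) among them. Of the A1 genes 8 were called, all higher, with Psmb8 (8.78), Gbp2 (7.91), Iigp1 (7.85) and H2-T23 (6.72) among them. Between EAE-RIPK1inh and EAE-vehicle the medians were -0.34, -0.69 and -0.68, beside -0.03 over all genes, and 0 of 10, 1 of 13 and 1 of 11 genes were called, Serpina3n (-1.23) and Gbp2 (-1.01) being lower, beside 3.02% of all genes. Ptgs2, Cd109, Clcf1, Slc10a6 and Ptx3 had signal in 1 to 5 of the 15 astrocyte libraries, Sphk1 in 6 and Emp1 in 9. Few values with signal thus stand behind the A2 median. With genes of a mean of at least 1 only, it was 2.14 over the fewer members tested. The other lists were not filtered in this way, and the difference between the lists was not tested.

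**Figure D4:**
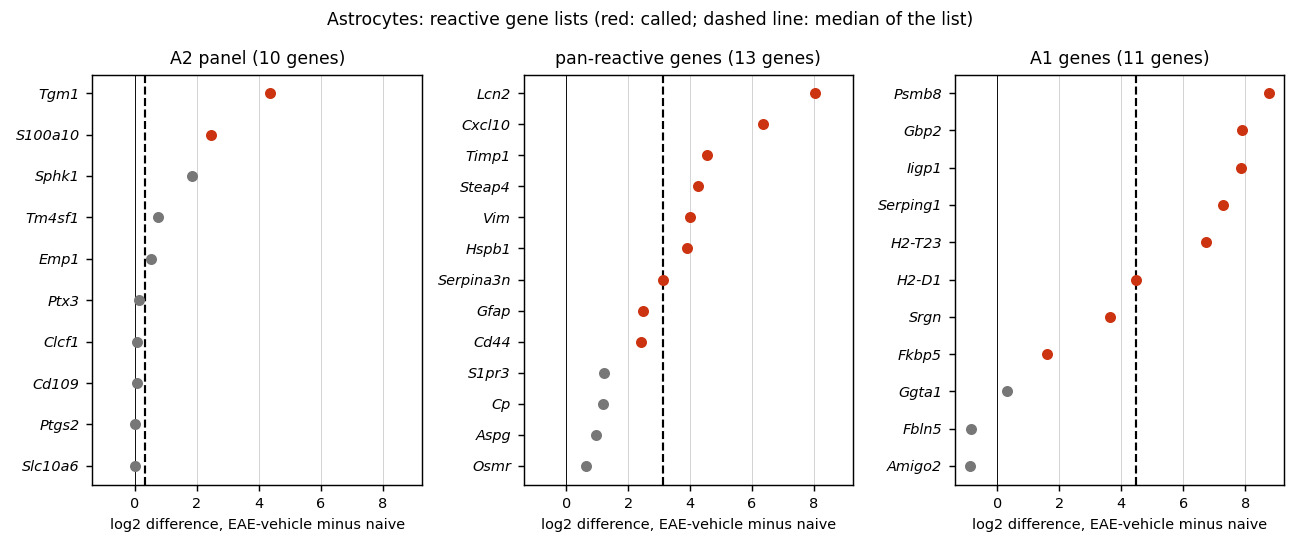
Log2 difference between EAE-vehicle and naive astrocytes (horizontal axis) for each gene of the A2 panel, the pan-reactive list and the A1 list, with called genes in red and a dashed line at the median of the list. The medians are 0.32, 3.14 and 4.46, and the first includes members without signal in most libraries.

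Genes whose level followed that of a member most closely over the 15 astrocyte libraries were sought among 9137 protein-coding genes with signal in at least 10 of them. For S100a10 these were Tuba1a (Pearson r 0.943), Rpl13 (0.920) and Gbp7 (0.915). For Tgm1 they were Trim36 (0.887), Gpx1 (0.882) and Timp1 (0.875), the last a pan-reactive gene. For Tm4sf1 they were Rftn1 (0.843), Kcnip1 (0.835) and Tbc1d22a (0.799). These correlations describe 15 libraries that share groups, normalization and differences in the number of genes with signal, and the other 7 members had signal in too few libraries.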

How the data were processed

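RNA of sorted spinal cord astrocytes and microglia was sequenced by the authors, who processed the reads in OmicSoft Array Studio version 10.1.1.3. The deposited values are log2 FPKM, quantile-normalized over all 30 libraries, since each library holds the same sorted values. The aligner, the genome build and the offset before the logarithm are not given in the sources used here. Quantile normalization breaks ties by table order, and genes within that tied stretch of a library were taken as without signal. Counts cannot be had from such values, so depth stays unknown and counting errors are not given. Positions of 10 of 10 members matched GENCODE M21 (GRCm38). The annotation marks Clcf1, Tgm1, Ptx3, Sphk1, Cd109 and Slc10a6 as confounded with another gene. Upstream sequences are from RefSeq (GRCm38.p6), with 7 of 10 members matched.

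Groups follow the labels. The 15 libraries of a cell type entered 1 fit in R 4.3.3 with limma 3.58.1 (lmFit, eBayes with trend), and all 30 entered 1 fit for comparisons of cell types. Genes were called at a fold change over 1.5 and an unadjusted p under 0.05, with Benjamini-Hochberg adjustment over all genes tested. Exact two-sided permutation tests of the difference in means enumerated all assignments. The fits were tested on simulated data. The replicate numbers shared between groups do not pair mice in the labels, so fits had no block. The members and gene lists were chosen with earlier results of these data known. All members are named. Of the other lists, the genes named are those called in astrocytes, at most 4 per list and comparison by smallest p, and the direct partners of members. A single one of these partners is not reported here. Alternatives covered values without signal, a filter at a mean of 1, an offset, centring, quality weights, a replicate block, only the groups compared and leaving out libraries.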

Additional observations from a re-analysis of the deposited data

Results flagged for a closer look

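The change of a member with EAE differed between astrocytes and microglia for Tgm1, by 3.86 log2 units, and for Clcf1, by 2.60, each by an interaction term in limma with an unadjusted p under 0.05 and an adjusted p of 0.183 and 0.34. With a replicate block the Clcf1 difference was 2.01 with an unadjusted p of 0.0515 in limma, and was no longer called. Clcf1 had no signal in 3 of 4 naive astrocyte libraries, so a fall of the size seen in microglia could not show in astrocytes.

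Within groups, 23 of 50 member and group pairs with any signal held a library whose gap to its nearest neighbour, as a share of the group's range, was above the 95% critical value of Dixon's test, with values without signal taken as 0. Chance flags about 1 in 20 groups of normal values without ties, which these are not, so the count cannot be read against that rate. In 17 of the 23 the library was the only one of its group with signal, so the gap is signal against none and was flagged by construction. The 23 libraries were, among naive astrocytes, replicate 2 for Clcf1 (2.83), replicate 4 for Tgm1 (1.52), and replicate 1 for Sphk1 (0.03) and Slc10a6 (0.44), with replicate 3 also standing apart for Ptx3 (0.60). In EAE-vehicle astrocytes replicate 1 was low for S100a10 (6.76) and replicate 2 was low for Tgm1 (0.25) and high for Cd109 (1.02) and Ptgs2 (0.07). In EAE-RIPK1inh astrocytes replicate 1 was high for Slc10a6 (2.28), replicate 3 for Ptx3 (0.51) and Sphk1 (4.84), and replicate 4 for Clcf1 (0.64). In microglia, naive replicate 1 stood apart for Cd109 (0.51) and Tm4sf1 (0.61), EAE-vehicle replicate 1 for Sphk1 (0.30) and Cd109 (0.19), and EAE-vehicle replicate 5 for Emp1 (0.54). EAE-RIPK1inh microglia replicate 1 stood apart for Cd109 (0.32), Emp1 (0.31) and Tm4sf1 (0.81), replicate 2 for Slc10a6 (0.52) and replicate 5 for Sphk1 (0.28).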

How the results depend on the processing

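The 2 members called higher in EAE-vehicle astrocytes, S100a10 and Tgm1, were called under all 9 alternatives and with each library left out (2 to 2 called, median difference 0.18 to 0.48), and quality weights added Sphk1. With genes of a mean of at least 1 only, the median difference of the panel was 2.14, since fewer members were tested, and 2 and 3 members were called between the cell types in EAE-vehicle and EAE-RIPK1inh mice. Between EAE-RIPK1inh and EAE-vehicle, 0 members were called, but 2 with quality weights (Tgm1 lower, Tm4sf1 higher), 1 without libraries under 9000 genes with signal (S100a10 lower) and 1 without libraries over 20000 (Tgm1 lower). With 1 library left out this count ran from 0 to 2 and the panel's median from -0.46 to -0.16. The adjusted p of these calls was 0.726 or more, and the cause was not tested. Between EAE-RIPK1inh and naive, 1 to 3 members were called with 1 library left out, and 1 without libraries under 9000 genes. In microglia, quality weights gave 1 call (Clcf1) for the inhibitor. Leaving out 1 library gave 4 to 6 and 4 to 5 calls between the cell types in EAE-vehicle and EAE-RIPK1inh mice, and 2 to 3 members whose EAE effect differed between them. Over all genes, quality weights raised the calls from 2060 to 3698 in EAE-vehicle against naive astrocytes, from 1421 to 3152 in EAE-RIPK1inh against naive, from 511 to 2730 for the inhibitor in microglia and from 1066 to 1979 for its interaction, where the filter gave 557. Centring libraries moved the median EAE interaction from 0.05 to 0.18 and its calls over 1.5-fold from 1149 higher and 1537 lower to 1550 and 1231. Inhibitor calls in astrocytes went from 564 higher and 363 lower to 675 and 693 with quality weights and 420 and 438 without EAE-vehicle replicate 1. The 2 alternatives by genes with signal were chosen after seeing the data. No direction of a called member reversed. Same-numbered astrocyte libraries correlated in their deviations from the group means by -0.191 to 0.099 (median 0.0217, 0 of 13 pairs over 0.1), microglia libraries by -0.0974 to 0.21 (median 0.0746, 5 of 13) and libraries of the 2 cell types by -0.0787 to 0.131 (median 0.0245, 1 of 15), so not every pair was over 0.1 in any of them and the fits had no block. With the replicate block, 2 members were called in EAE-vehicle against naive, 2 in EAE-RIPK1inh against naive, without Tgm1, and 1 (Tgm1) instead of 2 in the interaction. The microglia Clcf1 difference was -2.54 with it, and calls between the cell types stayed at 2, 5 and 5.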
